A study of Drosophila melanogaster with 4 samples.

Results

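Drosophila blood cells, the hemocytes, arise from the head mesoderm and share their germ layer with the myoblasts that form the larval muscles. Described here are 10 genes of hemocytes and of crystal cells, a hemocyte type that carries the melanization enzymes, in RNA from sorted embryonic muscle cells. They were chosen by name, as a trace of other mesoderm in the sort, and all 10 were found among the 17518 genes of the deposited table. The 10 are serpent (srp), u-shaped (ush), glial cells missing (gcm), gcm2, lozenge (lz), the prophenoloxidase genes PPO1 and PPO2, croquemort (crq), draper (drpr) and glob1. The groups were salm[340], a mutant of the zinc finger transcription factor gene spalt major, with 2 libraries, and WT, with 2 libraries. Embryos of both lines were at stage 11 and were picked by hand as homozygous by their GFP, and their GFP-positive cells were sorted for polyA RNA. Eggs were laid over 3 h and aged for 7 h, with a temperature of 25 °C given for both lines, per the labels' protocols. Both lines therefore carried GFP, and the labels used here do not name its transgene. The submitters call the replicates technical, so n counts libraries and each p measures only the spread between libraries, which may be technical.

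As background, Srp is a GATA factor needed for blood cell formation, and also for fat body and endoderm. Ush is a zinc finger cofactor that binds GATA factors and holds back the crystal cell fate, while Lz is the RUNX factor that directs it. Gcm and Gcm2 promote the plasmatocyte, the macrophage-like hemocyte, and Gcm also directs glial fate in the nervous system. Crq and Drpr are receptors for the uptake of dying cells, and Drpr also acts in glia. PPO1 and PPO2 are made by crystal cells and start melanin formation at wounds. Glob1 is an oxygen-binding globin that is also known from the tracheal system and fat body. Several of the 10 are thus not particular to blood cells.

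The crystal cell enzymes and glob1 were higher in salm[340], drpr was lower, and the transcription factor genes and crq did not pass the test. Of the 10 genes, 9 had enough counts to be tested and lz did not. Of these 9, PPO1, PPO2 and glob1 rose and drpr fell (edgeR adjusted p under 0.05). Among all 10738 tested genes 17.2% were called, 10.04% as higher and 7.16% as lower. The median log2 fold change was -0.03 over the 9 genes and -0.01 over all tested genes, with both directions among the 9. Levels given as CPM are counts scaled to library sizes that TMM has adjusted, so that the bulk of genes is set as equal. Positive log2 fold changes mean higher in salm[340].

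Depth and composition differed between the lines. Listed genes held 15170218 and 15668621 counts in salm[340] and 21857295 and 20530119 in WT, of which mitochondrial genes took 60.9% and 63.2% in salm[340] and 24.8% and 29.3% in WT. The mitochondrial share moved with each difference below, and its part in them was not tested. With library size alone as the scale, the median gene stood at -1.202, and rises smaller than that change sign there. The calls also depended on which pair of libraries set the spread. Leaving out 1 WT library takes it from the salm[340] pair alone, and the called genes named here then lost their calls without changing direction. Over nuclear genes the salm[340] pair varied more (chi-square per degree of freedom 7.36, against 4.15 in WT). Leaving out 1 salm[340] library takes the spread from the WT pair alone, and more of all tested genes then passed. Calls said below to be gained in such fits are to be read beside that general gain. The mutated gene salm had 954 and 994 counts in salm[340] and 871 and 749 counts in WT, or 93.2 and 97.8 CPM in salm[340] and 25.7 and 24.8 CPM in WT (log2 fold change 1.92, SE 0.0926, adjusted p = 1.102e-06 in edgeR). Its RNA was thus higher in the mutant libraries, and the labels used here do not say what the allele changes in the gene, so its level does not check the labels.

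**Figure D1:**
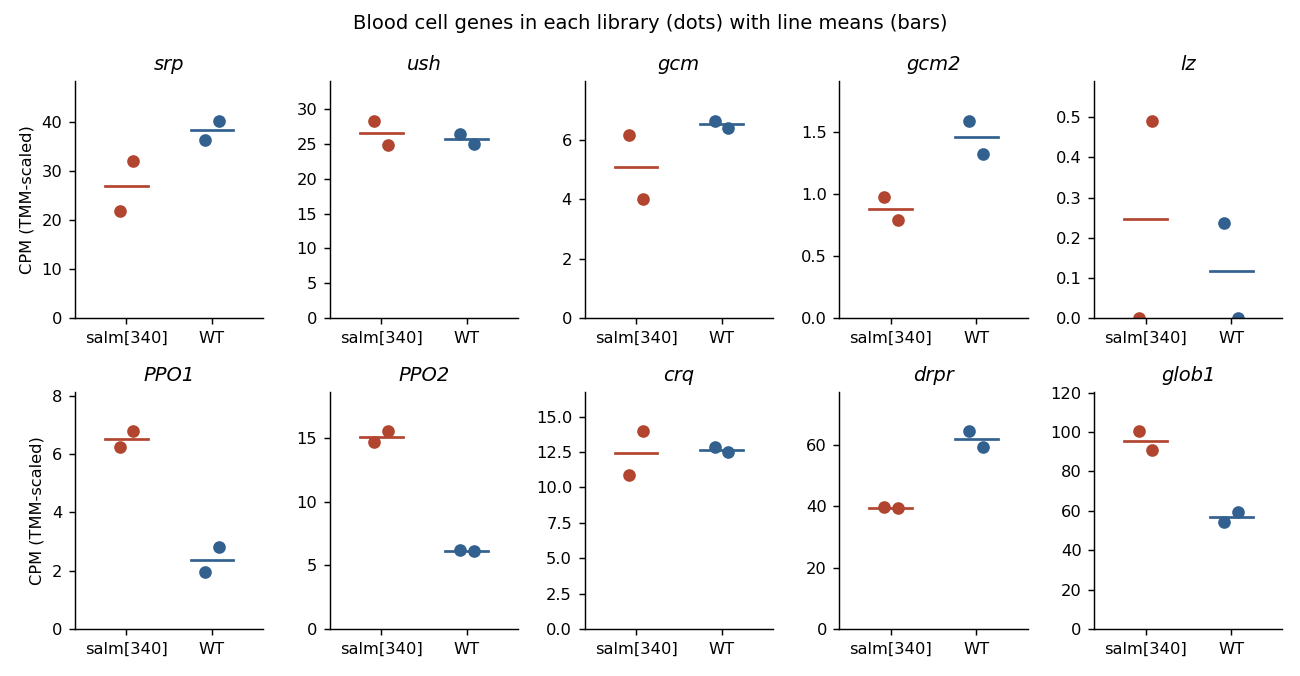
TMM-scaled CPM of the 10 genes, 1 panel per gene with its own axis from 0, with salm[340] left of WT. Dots are libraries and bars the means of 2 libraries. The salm[340] dots lie above both WT dots for PPO1, PPO2 and glob1, and below them for srp, gcm, gcm2 and drpr, but with library size alone glob1 is lower in salm[340].

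The 2 prophenoloxidase genes rose most. PPO2 (FBgn0033367, 2R, 9042261 to 9044709, minus strand, BDGP6) had 150 and 158 counts in salm[340], against 210 and 184 counts in WT. Scaled, these were 14.7 and 15.5 CPM in salm[340] and 6.19 and 6.10 CPM in WT (log2 fold change 1.30, SE 0.191, adjusted p = 0.001506 in edgeR). Both salm[340] libraries were more than 2 times as high as either WT library, and the libraries of a line lay close together. Without WT replicate 1 or WT replicate 2, PPO2 kept its size at 1.30 and 1.28 but did not pass (adjusted p = 0.2495 and 0.236 in edgeR).

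PPO1 (FBgn0283437, 2R, 17887220 to 17889973, minus strand) had 64 and 69 counts in salm[340], against 66 and 85 in WT. Its level was 6.25 and 6.79 CPM in salm[340] and 1.94 and 2.82 CPM in WT (log2 fold change 1.46, SE 0.330, adjusted p = 0.01463 in edgeR). The lines did not overlap, though the WT libraries differed more than those of salm[340]. Without WT replicate 1 the log2 fold change was 1.203 and without WT replicate 2 it was 1.73, neither passing (adjusted p = 0.372 and 0.283 in edgeR). PPO1 and PPO2 were the tested members that did not turn lower with library size alone, where they stood at 0.27 and 0.10 and did not pass (adjusted p = 0.488 and 0.667 in edgeR). The 2 genes lie far apart on 2R, and their exons overlap no other annotated feature. Fragments that match more than 1 place were counted for each, so paralogs may share some.

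The crystal cell factor gene lz (FBgn0002576, X, 9284649 to 9303636, plus strand) was close to absent. It had 0 and 5 counts in salm[340] and 8 and 0 counts in WT. A count of 0 allows up to 0.293 CPM in salm[340] replicate 1 and up to 0.0993 CPM in WT replicate 2, taking 3 counts as the limit, which covers counting error only. The 2 lines overlapped, and no difference in lz was detectable at this depth. In the same libraries PPO2 had at least 150 counts. Thus the crystal cell enzymes were measured where their lineage factor was near the limit of detection.

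The globin gene glob1 was the most abundant of the 10 and rose as well. Glob1 (FBgn0027657, 3R, 15896926 to 15904643, minus strand) had 1028 and 923 counts in salm[340], against 1848 and 1786 counts in WT. Its level was 100.4 and 90.8 CPM in salm[340] and 54.4 and 59.2 CPM in WT (log2 fold change 0.75, SE 0.0936, adjusted p = 0.0005594 in edgeR). The lines did not overlap. With library size alone glob1 turned lower, at -0.44 (adjusted p = 0.00181 in edgeR), so its rise is relative to the bulk of genes. Without WT replicate 1 or WT replicate 2 it stood at 0.69 and 0.81 and did not pass (adjusted p = 0.2495 and 0.204 in edgeR). The paralogs glob2 and glob3 were not tested. Glob2 had 0 counts in all 4 libraries, and glob3 had 6 and 0 counts in salm[340] and 1 and 2 in WT.

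Of the 2 engulfment receptors, drpr fell and crq did not pass. Drpr (FBgn0027594, 3L, 1715595 to 1731107, minus strand) had 406 and 402 counts in salm[340], against 2189 and 1793 counts in WT. Its level was 39.7 and 39.5 CPM in salm[340] and 64.5 and 59.4 CPM in WT (log2 fold change -0.65, SE 0.0979, adjusted p = 0.001771 in edgeR). The lines did not overlap. With library size alone it was lower still, at -1.84, and without WT replicate 1 or WT replicate 2 it stood at -0.59 and -0.71 and did not pass (adjusted p = 0.268 and 0.218 in edgeR). A stretch of 115 of its 4757 exon bases is shared with Oseg4 on the same strand, a gene with 40 to 63 counts in salm[340] and 172 to 215 in WT.

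Crq (FBgn0015924, 2L, 448254 to 453024, minus strand), a receptor of the CD36 family, had 111 and 142 counts in salm[340], against 436 and 377 in WT. Its level was 10.8 and 14.0 CPM in salm[340] and 12.8 and 12.5 CPM in WT, and the WT libraries lay between those of salm[340]. The log2 fold change was -0.03 (SE 0.186, adjusted p = 0.933 in edgeR). Its value is uncertain for another reason. Of its 2848 exon bases, 448 (15.7%) are shared with expanded (ex) on the opposite strand, and the authors counted without strand. The ex gene had 498 and 587 counts in salm[340] and 1291 and 1239 in WT, more than crq in each library, and rose by the same test (log2 fold change 0.43, SE 0.112, adjusted p = 0.0274 in edgeR), but it stood at -0.76 with library size alone. How many crq counts are fragments of ex was not tested.

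Of 10 partners of the engulfment receptors, all tested, 2 were called (Src42A higher, prtp lower), a share close to the 17.2% called among all genes, and the list median was 0.09. Src42A, a Src family kinase, had 110.9 ± 7.65 CPM in salm[340] and 80.0 ± 3.32 CPM in WT (SD, n = 2 each, log2 fold change 0.47, adjusted p = 0.00537 in edgeR), and with library size alone it was lower, at -0.72. The gene prtp, whose product has been described as a ligand of Drpr, had 42.6 ± 2.99 CPM in salm[340] and 55.6 ± 0.559 CPM in WT (SD, n = 2 each, log2 fold change -0.38, adjusted p = 0.0263 in edgeR). It did not pass in DESeq2 (adjusted p = 0.0635). Rac2 (-0.30) and Rac1 (0.22) did not pass (adjusted p = 0.0861 and 0.095 in edgeR). Rac2 passed without salm[340] replicate 2 (-0.46, adjusted p = 3.344e-05 in edgeR) and with no low-count filter (-0.34, adjusted p = 0.00918 in edgeR), and Rac1 passed without salm[340] replicate 1 (0.24, adjusted p = 0.0127 in edgeR) or replicate 2 (0.21, adjusted p = 0.0282 in edgeR). The Rac genes, mbc, Ced-12 and Crk of this list act in myoblast fusion too. Among 9 further genes listed as scavenger receptors, not all of the family of crq, 4 were tested and 0 passed in edgeR or DESeq2. In edgeR 1 was lower at an unadjusted p under 0.05. The smallest p were those of emp (-0.37), Snmp2 (-0.51), pes (-0.17) and Sr-CIV (-0.50), with edgeR adjusted p between 0.152 and 0.716. Without salm[340] replicate 2, emp (-0.61), Snmp2 (-0.77) and pes (-0.64) passed (edgeR adjusted p of 0.00124, 0.0464 and 0.00648). The genes ninaD, santa-maria, Snmp1, Sr-CII and Sr-CIII were not tested, with at most 9 counts in a library.

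Srp, the GATA factor gene at the head of the lineage, did not pass. It (FBgn0003507, 3R, 15986152 to 16004085, plus strand) had 223 and 326 counts in salm[340], against 1229 and 1214 counts in WT. Its level was 21.8 and 32.1 CPM in salm[340] and 36.2 and 40.2 CPM in WT (log2 fold change -0.50, SE 0.164, adjusted p = 0.0625 in edgeR). Both salm[340] libraries were below both WT libraries, but they differed from each other more than the WT libraries did. The call depended on them. Without salm[340] replicate 2 srp stood at -0.81 and passed (adjusted p = 2.603e-06 in edgeR), and without salm[340] replicate 1 it stood at -0.25 and did not (adjusted p = 0.0802 in edgeR). With no low-count filter it passed at -0.54 (adjusted p = 0.000652 in edgeR).

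Counts of a noncoding gene that shares most of its exon bases with srp were lower in salm[340]. The transcript lncRNA:CR44133 lies on the same strand. It shares 938 of its 1153 bases, which are 16.1% of the exon bases of srp. It had 0 and 2 counts in salm[340] and 81 and 54 counts in WT (log2 fold change -4.33, SE 0.909, adjusted p = 0.00998 in edgeR). In WT its counts were a small part of those of srp, and a fragment in the shared stretch was counted for both genes. How many of its counts are fragments of srp was not tested.

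Ush (FBgn0003963, 2L, 476220 to 540560, plus strand), the cofactor of GATA factors, did not pass the test. It had 290 and 253 counts in salm[340] and 895 and 752 in WT, or 28.3 and 24.9 CPM in salm[340] and 26.4 and 24.9 CPM in WT. The lines overlapped, and the log2 fold change was 0.05 (SE 0.125, adjusted p = 0.817 in edgeR). It turned to -1.14 with library size alone, near the median gene of that setting.

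The 2 gcm genes, which lie 26.8 kb apart on 2L, both had lower values in salm[340] without passing. Gcm (FBgn0014179, 2L, 9579498 to 9581745, minus strand) had 63 and 41 counts in salm[340] and 226 and 193 counts in WT, or 6.16 and 4.03 CPM in salm[340] and 6.66 and 6.39 CPM in WT (log2 fold change -0.36, SE 0.282, adjusted p = 0.437 in edgeR). Gcm2 (FBgn0019809, 2L, 9608562 to 9612706, plus strand) had 10 and 8 counts in salm[340] and 54 and 40 counts in WT, or 0.977 and 0.787 CPM in salm[340] and 1.59 and 1.33 CPM in WT (log2 fold change -0.72, SE 0.584, adjusted p = 0.4475 in edgeR). In both genes the libraries of the lines did not overlap, but the standard errors were large at these counts. Over the 9 tested genes the lines did not overlap for 3 genes higher and 4 lower, beside 59.1% of all tested genes that did not overlap, 28.4% higher and 30.7% lower in salm[340].

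Of 9 other GATA and RUNX genes and partners, 8 were tested and 1 was called, beside 17.2% among all genes. Of the 8, 7 had positive values, with a median of 0.19. The gene called was grn, which encodes a GATA factor. It had 8.98 ± 2.75 CPM in salm[340] and 4.37 ± 0.847 CPM in WT (SD, n = 2 each, log2 fold change 1.04, adjusted p = 0.038 in edgeR). But grn lost its call without salm[340] replicate 2 (0.69) and stood at -0.15 with library size alone. The RUNX gene run was at -0.90 (adjusted p = 0.056 in edgeR), GATAe at 0.97 (adjusted p = 0.127 in edgeR) and GATAd at 0.18 (adjusted p = 0.532 in edgeR). Run passed without salm[340] replicate 1 (-0.95, adjusted p = 0.0142 in edgeR) or replicate 2 (-0.85, adjusted p = 0.0264 in edgeR) and with no low-count filter (-0.94, adjusted p = 0.0191 in edgeR). GATAe (1.25) and GATAd (0.42) passed without salm[340] replicate 1 (edgeR adjusted p of 0.00591 and 0.0229). RunxB was not tested, with 0 and 0 counts in salm[340] and 2 and 1 in WT.

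**Figure D2:**
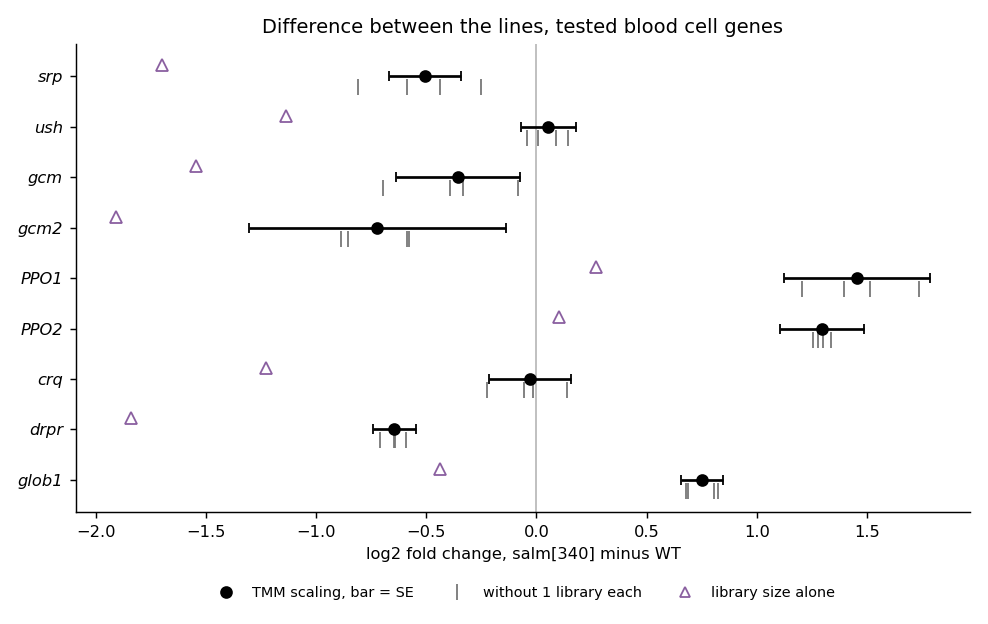
Log2 fold change (salm[340] minus WT) of the 9 tested genes. Black points carry bars of 1 SE, grey ticks leave out 1 library each, and open triangles use library size alone. PPO1 and PPO2 stay right of 0 in each fit shown, glob1 moves left of 0 with library size alone, and srp, gcm, gcm2 and drpr stay left of 0.

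Levels per length put the 10 genes in an order within each line. TPM, which divide counts by gene length and scale them to one total, were computed over all listed genes, and since mitochondrial genes share that total they are read within a line. In salm[340], glob1 led at 44.6 ± 4.01 TPM, followed by drpr (7.01 ± 0.146 TPM), PPO2 (5.57 ± 0.127 TPM), srp (3.88 ± 0.976 TPM), crq (3.66 ± 0.584 TPM), ush (3.34 ± 0.368 TPM), PPO1 (2.35 ± 0.0921 TPM), gcm (1.98 ± 0.618 TPM), gcm2 (0.319 ± 0.0545 TPM) and lz (0.0589 ± 0.0833 TPM; SD, n = 2 each). There srp and crq, crq and ush, and PPO1 and gcm did not differ beyond the spread of their libraries. In WT, glob1 also led at 64.5 ± 1.43 TPM, followed by drpr (26.7 ± 2.53 TPM), srp (13.4 ± 0.505 TPM), crq (9.13 ± 0.516 TPM), ush (7.85 ± 0.602 TPM), gcm (6.16 ± 0.402 TPM), PPO2 (5.53 ± 0.261 TPM), PPO1 (2.08 ± 0.464 TPM), gcm2 (1.29 ± 0.213 TPM) and lz (0.0715 ± 0.101 TPM; SD, n = 2 each). In WT no neighbours in the order had overlapping libraries.

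PPO2 changed its place most, at rank 3 in salm[340] and rank 7 in WT. In WT srp, crq, ush and gcm all stood above PPO2, and in salm[340] they all stood below it. Against all tested genes, glob1 stood above 94.4% of them in salm[340] and 91.1% in WT, and PPO2 above 59.3% in salm[340] and 35.4% in WT. Srp stood above 49.1% in salm[340] and 58.9% in WT. The blood cell genes other than glob1 and drpr were therefore of middle to low abundance in both lines.

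**Figure D3:**
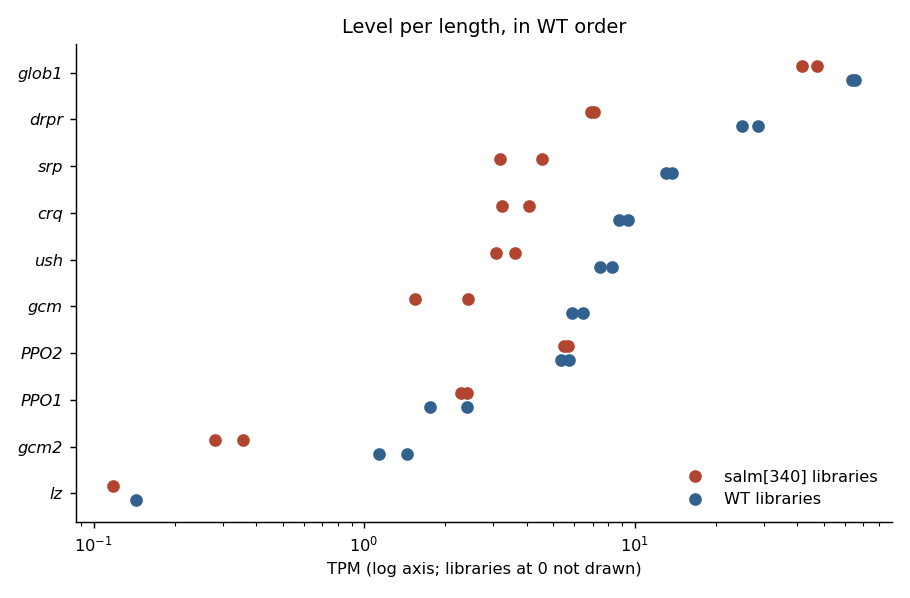
TPM of the 10 genes on a log axis, in the order of their WT means, with each salm[340] library as a red dot and each WT library as a blue dot. PPO2 lies at 5.57 TPM on average in salm[340] and 5.53 TPM in WT, while most other genes lie further left in salm[340], where mitochondrial genes take more of the total.

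Ratios between members within a library do not depend on the scaling between libraries. Per length, PPO2 stood to drpr at 0.771 and 0.820 in salm[340], against 0.2002 and 0.214 in WT. PPO2 stood to srp at 1.72 and 1.24 in salm[340], against 0.437 and 0.388 in WT. The ratio of PPO2 to each of these genes was thus higher in both salm[340] libraries than in either WT library.

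Glob1 stood to srp at 14.9 and 9.15 in salm[340] and at 4.86 and 4.75 in WT, and to drpr at 6.67 and 6.05 in salm[340] and at 2.22 and 2.63 in WT. By contrast, PPO2 stood to PPO1 at 2.403 and 2.35 in salm[340] and at 3.26 and 2.22 in WT, which overlapped. The ratio of crq to ush overlapped too, at 0.901 and 1.32 in salm[340] and 1.15 and 1.18 in WT. In CPM, PPO2 and glob1 lay above WT in salm[340], and srp and drpr lay below. Their ratios therefore had to separate and add no further support. Of the other ratios computed, gcm to gcm2 and crq to drpr were higher in salm[340] without overlap, and srp to ush was lower. The ratios show unequal differences between members and not which member changed. With 2 libraries a line, a two-sided exact permutation test cannot go below p = 0.333, so no such test is given.

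The other blood cell lists held 22 genes, 17 of them tested, with 2 higher and 4 lower beside 10.04% and 7.16% among all genes. Of 11 plasmatocyte genes, 8 were tested, 3 fell and none rose, with a median of -0.19. Papilin (Ppn), a matrix glycoprotein, had 51.6 ± 6.48 CPM in salm[340] and 78.1 ± 0.857 CPM in WT (SD, n = 2 each, log2 fold change -0.60, adjusted p = 0.00363 in edgeR). Peroxidasin (Pxn), an early plasmatocyte marker that acts in the matrix, had 87 and 47 counts in salm[340] and 491 and 485 in WT, and its log2 fold change was -1.22 (SE 0.2575, adjusted p = 0.0105 in edgeR).

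The collagen IV gene Col4a1 was at -0.34 with an edgeR adjusted p of 0.0483 and did not pass in DESeq2 (adjusted p = 0.137). The collagen IV gene vkg of the same list was at 0.0048 and did not pass (adjusted p = 0.987 in edgeR). Hml, a clotting protein gene of mature hemocytes, had 9 and 8 counts in salm[340] and 16 and 3 in WT and stood at 1.51 (adjusted p = 0.3065 in edgeR, SE 0.922). Of the mature plasmatocyte markers, He and eater had 0 counts in all 4 libraries, and NimC1 had 4 and 0 counts in salm[340] and 7 and 3 in WT. These 3 genes were not tested.

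Of 7 crystal cell and lamellocyte genes, 5 were tested, fok rose and none fell, with a median of 0.60. Fok had 560 and 598 counts in salm[340] and 788 and 640 in WT, or 56.8 ± 2.90 CPM in salm[340] and 22.2 ± 1.42 CPM in WT (SD, n = 2 each, log2 fold change 1.35, SE 0.108, adjusted p = 3.634e-05 in edgeR). With library size alone fok stood at 0.16 and did not pass (adjusted p = 0.255 in edgeR). The zinc finger gene klu was at 0.60 (adjusted p = 0.0929 in edgeR), the lamellocyte marker atilla at 1.98 on 7 to 22 counts a library (adjusted p = 0.098 in edgeR) and peb at 0.11 (adjusted p = 0.666 in edgeR). Without salm[340] replicate 1, klu (0.75) and atilla (2.13) passed, in a fit where more of all tested genes passed. CG17109 and PPO3, the third prophenoloxidase gene, which is made by lamellocytes, were not tested. PPO3 had 1 and 0 counts in salm[340] and 16 and 6 in WT.

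The growth factor receptor of hemocytes and one of its ligands moved apart. Pvr, the receptor, had 38.7 ± 3.15 CPM in salm[340] and 58.5 ± 0.492 CPM in WT (SD, n = 2 each, log2 fold change -0.60, adjusted p = 0.00323 in edgeR). Its ligand gene Pvf3 had 43.9 ± 4.36 CPM in salm[340] and 26.7 ± 1.68 CPM in WT (SD, n = 2 each, log2 fold change 0.72, adjusted p = 0.00266 in edgeR). With library size alone Pvf3 was lower, at -0.47. The ligand genes Pvf1 (-0.64) and Pvf2 (-0.32) did not pass (adjusted p = 0.244 and 0.68 in edgeR), but Pvf1 passed without salm[340] replicate 2 (-1.39, adjusted p = 0.000364 in edgeR).

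Summed levels set the blood cell genes beside the labelled tissue. All 10 genes of a myoblast and muscle list were tested and measured in every library. Of these, 6 were called higher and 2 lower in salm[340], beside 10.04% and 7.16% among all tested genes. Mhc, the muscle myosin heavy chain, was at 1.29, kirre, a cell adhesion gene of founder myoblasts, at 1.504, Tm2 at 0.84 and blow at -0.45 (edgeR adjusted p between 2.246e-06 and 0.00332), while Tm2 was lower with library size alone, at -0.35. Their summed level was 1186 and 1218 TPM in salm[340] and 2418 and 2306 TPM in WT. Of that sum the actin gene Act57B (log2 fold change 0.27) made up 75.3% and 75.7% in salm[340] and 78.0% and 77.8% in WT, so a share of the muscle list is mostly a ratio to Act57B. The 10 blood cell genes summed to 75.1 and 70.4 TPM in salm[340] and 138.3 and 135.2 TPM in WT, which is 6.33% and 5.78% of the muscle list in salm[340] and 5.72% and 5.86% in WT. The lines overlapped in this share, but with Act57B left out of the muscle list it was 25.68% and 23.82% in salm[340] and 26.02% and 26.45% in WT, which did not overlap. Glob1 made up 63.2% and 59.3% of the sum in salm[340] and 45.9% and 48.5% in WT. The other 9 genes stood at 2.33% and 2.35% of the muscle list in salm[340], against 3.10% and 3.02% in WT. Shares with a leading gene left out were chosen after the data were seen.

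The plasmatocyte list stood at 2.67% and 2.63% of the muscle list in salm[340] and at 4.12% and 3.90% in WT. Lower shares in salm[340] were not particular to it. The growth factor, engulfment, GATA and RUNX, and scavenger receptor lists were lower too. So were the lists of other cells given below, except that of lymph gland and cardiogenic mesoderm, which was higher. The crystal cell and lamellocyte list stood at 2.24% and 2.31% in salm[340] and 1.39% and 1.203% in WT. The gene fok made up 76.6% and 75.6% of that sum in salm[340] and 63.2% and 66.5% in WT. Without fok the list stood at 0.523% and 0.563% in salm[340] and 0.512% and 0.403% in WT, so most of its difference rested on fok. In bulk RNA, fewer cells of a type and less RNA per cell cannot be told apart, and the muscle genes that serve as the measure also differed between the lines.

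**Figure D4:**
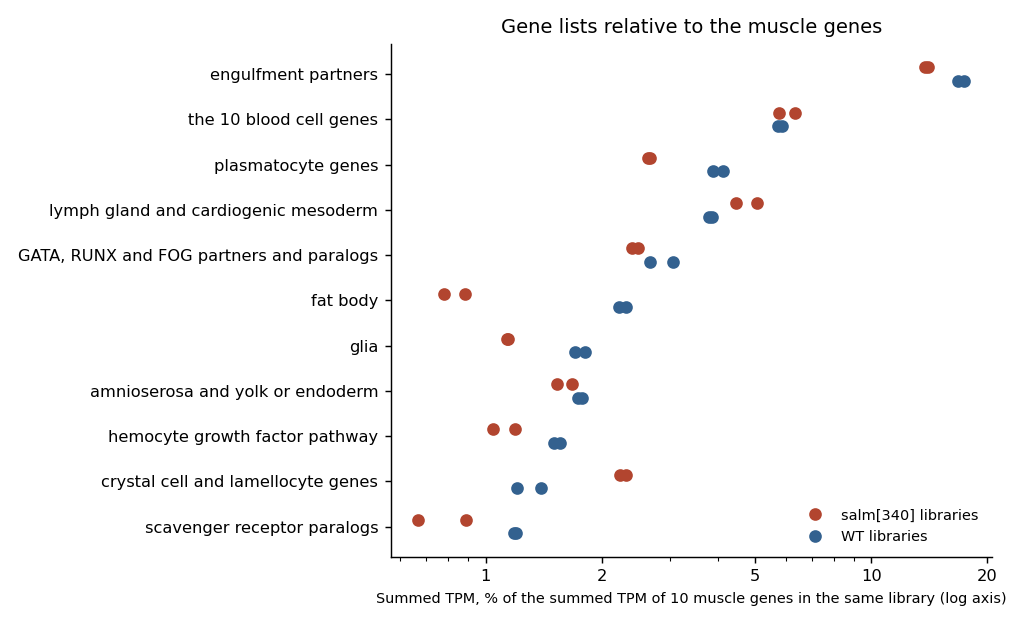
Summed TPM of each gene list as a percentage of the summed TPM of the 10 muscle genes in the same library, on a log axis, with salm[340] libraries as red dots above the WT libraries in blue. The 10 blood cell genes overlap between the lines. The crystal cell and lamellocyte list, of which fok is the greater part, is higher in salm[340] (0.523% and 0.563% without fok, against 0.512% and 0.403% in WT). The lymph gland and cardiogenic list is higher too. The plasmatocyte and fat body lists are lower, and so is each other list drawn, from engulfment partners to glia.

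Several of the 10 genes are also active in other cells, so lists of those cells are given beside them. Their part in the differences of the members was not tested. Fat body, which needs srp, had 5 of 8 genes tested and 2 lower, beside 7.16% called lower among all tested genes. Its list summed to 0.883% and 0.781% of the muscle list in salm[340] and 2.31% and 2.22% in WT. Without its leading gene Mtp the list stood at 0.262% and 0.159% in salm[340] and 0.343% and 0.321% in WT. The lipid transfer gene Mtp was at -1.32 (adjusted p = 2.915e-05 in edgeR), and the larval serum protein gene Lsp1gamma had 6 and 0 counts in salm[340] and 89 and 81 in WT (adjusted p = 0.0252 in edgeR). Lsp2 (-0.87) and apolpp (0.13) did not pass (adjusted p = 0.521 and 0.569 in edgeR), and Lsp1alpha, Fbp1 and Fbp2, with at most 3 counts, were not tested.

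Glia, where gcm and drpr act, had 6 of 7 genes tested and 2 lower, beside 7.16% called lower among all tested genes. Of the 6, 3 had positive values, and the list median was 0.07. The genes repo (0.27) and wrapper (-0.12) of this list did not pass (adjusted p = 0.600 and 0.784 in edgeR). The glia list summed to 1.14% and 1.13% of the muscle list in salm[340] and 1.71% and 1.81% in WT. Gli, which also acts in epithelial junctions, was at -1.04 and moody at -0.94 (adjusted p = 0.000955 and 0.0106 in edgeR), while loco (0.31) and Gs2 (0.78) did not pass (adjusted p = 0.16 and 0.426 in edgeR), but loco passed without salm[340] replicate 2 (0.33, adjusted p = 0.0434 in edgeR). Eaat1 was not tested, with at most 10 counts in a library.

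Lymph gland and cardiogenic mesoderm had 5 of 5 genes tested and 3 higher, beside 10.04% called higher among all tested genes. The list summed to 4.46% and 5.05% of the muscle list in salm[340] and 3.85% and 3.80% in WT. Those called were zfh1 (0.58), kn (0.99) and Hand (0.605), with edgeR adjusted p of 0.00146, 0.00261 and 0.0143. With library size alone their values were negative (-0.61, -0.19 and -0.59). Which of the sorted cells their RNA came from was not tested. The cardiac gene tin stood at 1.08 (adjusted p = 0.145 in edgeR), and passed without salm[340] replicate 1 (1.65, adjusted p = 0.000122 in edgeR) and with no low-count filter (1.04, adjusted p = 0.0334 in edgeR). Amnioserosa and yolk or endoderm genes, from tissues where ush and srp also act, had 9 of 10 tested and 0 called in edgeR or DESeq2, with 2 higher and 1 lower at an unadjusted p under 0.05 in edgeR. Their sum was at 1.67% and 1.53% of the muscle list in salm[340] and 1.78% and 1.73% in WT. Of these, fkh (-0.56), tup (0.34), GATAe (0.97) and Doc2 (0.68) had the smallest p, with edgeR adjusted p between 0.0816 and 0.275. Without salm[340] replicate 1, fkh (-0.59) and tup (0.33) passed, and without replicate 2, tup (0.34) and Doc2 (1.02) did (edgeR adjusted p between 0.0236 and 0.042). The amnioserosa gene zen was not tested, with at most 8 counts in a library.

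By position, 6 of the 10 genes form 3 close pairs, and no pair had both genes called. Glob1 and srp lie 81.5 kb apart on 3R, and glob1 rose while srp was at -0.50. Between them lie 18 listed genes, 15 of them tested, with a median of 0.05 and 1 called, beside 17.2% among all tested genes. The gene called was the synaptic protein gene Sap47, which was higher (1.03, adjusted p = 0.000881 in edgeR, and -0.16 with library size alone). Crq and ush lie 23.2 kb apart on 2L with 5 tested genes between them, 0 of them called, at -0.65 to -0.16. The 3 listed genes between gcm and gcm2 were not tested. Apart from the overlaps given above, ush shares 524 exon bases (7.81%) with lncRNA:CR46258, which had 10 and 16 counts in salm[340] and 19 and 28 in WT, and gcm shares 128 (5.89%) with CG31709, which had at most 2 counts. The exons of gcm2, lz, PPO1, PPO2 and glob1 overlap no other feature of the annotation used.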

How the data were processed

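PolyA RNA from sorted GFP-positive cells was sequenced in 4 libraries, 2 per line. The submitters' processing notes name STAR 2.5.4b, cutadapt 2.4 and build BDGP6. Per the file headers, the deposited count of each gene is a whole number from featureCounts 2.0.1 with the BDGP6.32 annotation of Ensembl 104, without normalization. The same headers give an overlap minimum of 10 bases, no use of strand, and full counting of fragments that map to several places or overlap several genes.

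All 17518 genes had equal counts in the series table and the library files. Genes passing filterByExpr (10738) were tested with edgeR 4.0.16 in R 4.3.3 (TMM, glmQLFit, glmQLFTest, no block, Benjamini-Hochberg over all tested genes, threshold 0.05). SE was taken as the size of the log2 fold change divided by the root of F. CPM use TMM effective library sizes, and TPM use the deposited gene lengths in bases.

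Both pairs of libraries varied beyond sampling error. Chi-square per degree of freedom was 10.3 in salm[340] and 13.3 in WT over all genes. Over nuclear genes, to which all members belong, it was 7.36 in salm[340] and 4.15 in WT. The members and lists were chosen with earlier results of these data known. All 10 members and 92 list entries matched by symbol, and 3 genes (peb, pes, GATAe) stand in 2 lists. All members are named, with up to 4 tested genes of each list by smallest adjusted p, untested list genes, and genes sharing exon with a member. The gene salm is named as the mutated gene, and Sap47, Act57B, repo, wrapper and vkg were named after their values were seen. Repo, wrapper and vkg are not part of the counts of named genes below. Alternatives were size factors of DESeq2 1.42.0, library size alone, nuclear genes only, no filter or a filter of 1 CPM in 2 libraries, DESeq2, robust estimation, leaving out each library, a replicate block, and TPM over nuclear genes only. No sequence was used here.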

Additional observations from a re-analysis of the deposited data

How the results depend on the processing

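Counts of calls moved with the scaling and the libraries. Over all tested genes 1847 were called, 8361 with library size alone, and 19 to 3685 leaving out 1 library each. Members called higher were 3, but 0 with library size alone and 0 to 3 leaving out 1 library. Members called lower were 1, but 7 with library size alone, 2 with no low-count filter, 2 with a replicate block, and 0 to 2 leaving out 1 library. Other blood cell genes called higher were 2, but 0 with library size alone and 0 to 4 leaving out 1 library, and those called lower were 4, but 12 with library size alone and 0 to 5 leaving out 1 library. Of the 28 named genes called, none kept its call without WT replicate 1 or without WT replicate 2, while 28 did without salm[340] replicate 1 and 27 without salm[340] replicate 2. These fits take the spread of the lone library from the other line's pair. All 28 kept their calls with size factors of DESeq2, robust estimation, no filter, the stricter filter and the block, 27 did with nuclear genes only and 26 in DESeq2. Named genes not called gained a call in the same direction in 4 cases with no low-count filter, 3 with the block, 9 without salm[340] replicate 1, 11 without salm[340] replicate 2 and 14 with library size alone.

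With library size alone 23 signs turned, those of ush (-1.14), glob1 (-0.44), klu (-0.59), peb (-1.09), Pvf3 (-0.47), Src42A (-0.72), Rac1 (-0.97), grn (-0.15), GATAe (-0.23), GATAd (-1.01), zfh1 (-0.61), kn (-0.19), Hand (-0.59), tin (-0.12), loco (-0.88), Gs2 (-0.41), apolpp (-1.06), tup (-0.86), Doc2 (-0.50), Tm2 (-0.35), ex (-0.76), lncRNA:CR46258 (-0.40) and Sap47 (-0.16). This setting shifts the median gene to -1.202. Leaving out 1 library each turned ush (range -0.044 to 0.14), crq (-0.22 to 0.14), Pvf2 (-1.10 to 0.18), GATAd (-0.094 to 0.42), pes (-0.64 to 0.19), apolpp (-0.0053 to 0.25) and Oseg4 (-0.61 to 0.032). No turned value in the fits that left out a library was called before or after. Apart from library size alone, log2 fold changes ranged over 1.203 to 1.73 for PPO1, 1.25 to 1.34 for PPO2, 0.68 to 0.82 for glob1, -0.71 to -0.59 for drpr and -0.81 to -0.25 for srp. Lz was tested only with no low-count filter (0.97, SE 2.06, edgeR adjusted p = 0.823).

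Replicate numbers are shared between the lines by name only. The deviations of same-numbered libraries correlated at 0.0417 over genes, and the block called 2256 genes in all, with srp (-0.52, edgeR adjusted p = 0.00113), run (-0.89, edgeR adjusted p = 0.0491) and Rac2 (-0.31, edgeR adjusted p = 0.0127) among them. TPM over nuclear genes only raises each level and leaves the order within a line as it was. Depth limits what can be seen of lz and gcm2, which had at most 10 counts in a salm[340] library. Nuclear genes held 5931283 and 5772320 counts in salm[340] and 16444569 and 14519441 in WT.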
